A study of Mus musculus with 44 samples.

Results

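The skin of mice that had recovered for 10 weeks after bleomycin was compared with the skin of mice still under bleomycin at 4 weeks. The members are all samples with these labels: 8 mice of the 10-week recovery group and 10 mice of the 4-week bleomycin group, 18 of the 44 mice of the series. All 44 were wild-type (WT) C57Bl/6 females, 8 weeks old at the start, and back skin was taken for RNA sequencing. Daily subcutaneous injections of 100 µL were given, with bleomycin at 1 U/mL according to the labels, and by the methods the recovery mice had 4 weeks of bleomycin followed by 6 or 10 weeks without it. The other groups were 10 mice given saline, 10 given bleomycin for 2 weeks and 6 after 6 weeks of recovery, and they are used here for reference levels and for contrasts with other mice. The 10-week recovery mice were older at harvest than the 4-week mice, and no saline group of their age is labelled, so age and time since bleomycin cannot be told apart.

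Bleomycin is an antibiotic that breaks DNA, and its injection into mouse skin is used as a model of the dermal fibrosis of systemic sclerosis. The injected skin takes up neutrophils, monocytes and T cells, and type I interferon induces a set of antiviral genes in it. Fibroblasts lay down collagen. Hair follicles of the skin grow and rest in cycles. Mouse back skin also holds a layer of striated muscle, the panniculus carnosus, beneath the dermal fat, so a biopsy reports on muscle as well as on skin.

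Depth, as reads counted on genes, was 8509094 to 13902575 in the 4-week bleomycin mice (median 12255521) and 11837496 to 13828614 in the 10-week recovery mice (median 12905996). Levels are given below as normalized counts, that is reads divided by 1 size factor per mouse, with the lowest to the highest mouse and the median. They compare mice for 1 gene and not genes with each other, since they were not divided by length. The keratinocyte markers Krt5 and Krt14 and the fibroblast marker Dcn were present in every mouse, with group medians of 63591, 36375 and 15878 at 4 weeks and 61282, 34448 and 21667 at 10 weeks of recovery. Muscle was present too: Ckm, the muscle creatine kinase, had medians of 26065 and 38868. The mice with the lowest median correlation with their own group were 10-week recovery mouse 4 (0.947), 10-week recovery mouse 7 (0.954) and 4-week mouse 3 (0.965), against 0.97 or more in the other 15. Calls of listed genes that were lost without these 3 mice are named with the processing alternatives. In whole skin, fewer cells of a type and less RNA per cell cannot be told apart.

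Many genes differed between the groups, in both directions. Of 17037 genes with a mean normalized count above 3, 2697 (15.8%) differed between the 10-week recovery mice and the 4-week bleomycin mice by more than 1.5-fold at an adjusted p below 0.05 (limma on log2(normalized count + 1), Benjamini-Hochberg), and such genes are called DEGs. Of these, 1550 were lower after recovery (9.1% of the genes tested) and 1147 higher (6.73%). The mice of both groups did not overlap for 735 of the lower DEGs and 280 of the higher ones, where 5.25% and 2.66% of all genes tested did not overlap in these directions. The median log2 fold change over all genes was 0.01. Without the 3 mice least like their group, an alternative chosen after the data were seen, 1610 genes were lower and 1151 higher. Fold changes below are log2 values of 10 weeks of recovery minus 4 weeks of bleomycin on the log2(normalized count + 1) scale, so the change of low genes is understated, and SE is the standard error of the fit.

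The question of reversal was put to genes chosen in other mice. Bleomycin at 2 weeks had raised 1585 genes above saline (9.3% of the genes tested) and lowered 1266 (7.43%), in mice that take no part in the 10-week against 4-week comparison. Of the 1585 raised genes, 1100 (69.4%) fell between the 4-week bleomycin and the 10-week recovery mice and 8 rose, and their median log2 fold change was -0.93 (quartiles -1.46 and -0.56). These 1100 were 71% of all 1550 genes that fell. Of the 1266 lowered genes, 764 (60.3%) rose and 7 fell, with a median of 0.78 (0.43 and 1.47), and they were 66.6% of the 1147 genes that rose. Raised genes thus lay below 0 and lowered genes above 0 for the most part, and the rest of each list did not pass the test in either direction.

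**Figure D1:**
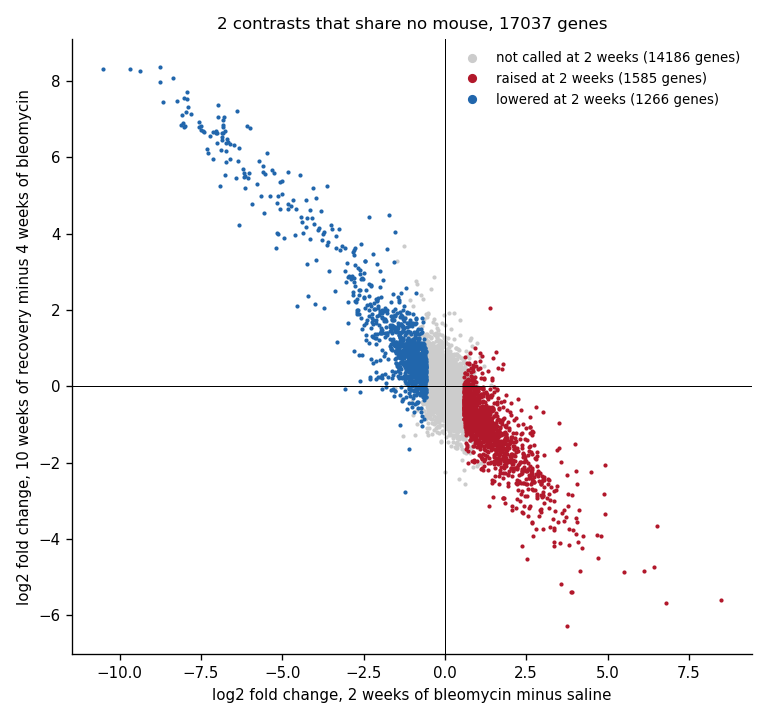
Log2 fold change of each of the 17037 genes at 10 weeks of recovery against 4 weeks of bleomycin (vertical) and at 2 weeks of bleomycin against saline (horizontal), contrasts with no mouse in common. Most of the 1585 genes raised at 2 weeks (red) lie below 0 and most of the 1266 lowered genes (blue) lie above 0.

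Interferon-stimulated genes fell together. This group encodes antiviral sensors and effectors that interferon induces in most cell types. Of 44 members tested, 43 were lower after 10 weeks of recovery and 0 higher, with a median log2 fold change of -1.55. Their summed normalized count ran from 27091 to 46317 (median 39667) at 4 weeks of bleomycin and from 11893 to 15426 (median 14212) at 10 weeks of recovery, against 8213 to 15679.8 (median 12816) with saline. The mice of both groups did not overlap for 41 of the 44.

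Interferon acts on these genes through a promoter element read by STAT and IRF proteins. Its core was searched as GAAANNGAAA on both strands in the 250 bases before the RefSeq start (build GRCm38.p6, the first listed start of each gene, with overlapping matches allowed). Of the 44 members, 34 had a promoter in the table and 17 of these (50%) held the letters, against 2.83% of the 12385 tested genes with a promoter and 3.04% of all 27025 promoters. A match is a description of the sequence and not a measured binding site. A window of 60 bases is shown for each of 4 genes that fell after bleomycin ended, with the fixed letters of each match in capitals. They are, with their log2 fold changes, Oas3 (-3.31), Isg15 (-2.52), Ifit3 (-2.45) and Ifit1 (-2.36), and Isg15 and Ifit3 were chosen for their match after their values were seen.
Oas3 (chr5:120777700-120777759, minus strand): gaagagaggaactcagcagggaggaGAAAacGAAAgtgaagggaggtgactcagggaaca
Isg15 (chr4:156200850-156200909, minus strand): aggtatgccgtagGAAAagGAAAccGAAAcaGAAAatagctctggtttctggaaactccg
Ifit3 (chr19:34583382-34583441, plus strand): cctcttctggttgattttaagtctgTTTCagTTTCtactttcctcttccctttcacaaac
Ifit1 (chr19:34640779-34640838, plus strand): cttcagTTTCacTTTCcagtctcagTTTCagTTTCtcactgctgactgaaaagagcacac

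Windows are read along the gene's strand, and those of Ifit1 and Ifit3 hold the core on the opposite strand, read there as TTTC repeats. Among single members, the largest fall was in Oas3, a double-stranded RNA sensor, with normalized counts of 238 to 678 (median 401) at 4 weeks of bleomycin and 27.2 to 53.5 (median 36.6) at 10 weeks of recovery. Mx1, a GTPase that blocks influenza virus, had 365 to 792 (median 509) at 4 weeks and 46.2 to 81.8 (median 52.9) after recovery. Irf7, the transcription factor that amplifies type I interferon, had 1519.7 to 3385 (median 2586) and 199 to 379.9 (median 327). Every 10-week mouse lay below every 4-week mouse for these genes, and the log2 fold changes of Oas3, Mx1 and Irf7 were -3.31 (SE 0.24, adjusted p = 1.11e-14), -3.20 (0.18, 7.04e-18) and -2.99 (0.20, 1.08e-15). Oasl1, which limits Irf7 translation, fell by 2.83 on the log2 scale and Ifit1 by 2.36. Against saline, the 10-week levels of Oas3, Mx1, Irf7 and Oasl1 differed by -0.24, -0.36, -0.02 and -0.07, none of which passed the test, with intervals (95%) of -0.73 to 0.25, -0.73 to 0.01, -0.43 to 0.38 and -0.60 to 0.46. Ifit1 was still higher than with saline, by 0.68 (adjusted p = 0.00502). Irf7 overlaps Phrf1 on the opposite strand, and strand use in the counting is not given in the sources used here.

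Genes of neutrophils, monocytes and the acute phase had the lowest median of all lists. Of 18 acute-phase and neutrophil genes tested, 14 fell and 0 rose, with a median log2 fold change of -1.97. Saa3, an acute-phase apolipoprotein, had 75.8 to 2317 (median 409) normalized counts at 4 weeks and 2.67 to 20.4 (median 5.87) at 10 weeks of recovery. S100a9, a calprotectin subunit of neutrophils and monocytes, had 66.8 to 449.6 (median 160.1) and 10.4 to 27.5 (median 12.1), and Clec4e, the lectin receptor Mincle, had 54.2 to 335 (median 99.2) and 1.74 to 11.5 (median 4). No 10-week mouse reached the lowest 4-week mouse for any of the 3 genes. Their log2 fold changes were -5.60 (SE 0.61, adjusted p = 8.76e-10), -3.56 (0.51, 3.55e-07) and -4.23 (0.35, 2.84e-13).

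Chil3, a chitinase-like protein of recruited macrophages (ENSMUSG00000040809.10, chromosome 3 from 106147554 to 106167564 of GRCm38), fell with 43.5 to 317 (median 148) at 4 weeks and 0 to 3.71 (median 1.81) at 10 weeks, a log2 fold change of -5.68 (SE 0.36, adjusted p = 1.75e-16). Saline mice had 0 to 8.29 (median 2.5), and the difference of the 10-week mice from them was -0.11 (95% interval -0.83 to 0.61). Ly6c2, a marker of inflammatory monocytes, had 377 to 1291 (median 876) at 4 weeks and 13.9 to 36.6 (median 24.1) after recovery, although reads could be split with its close paralog Ly6c1. Slfn4, a schlafen gene of interferon-exposed myeloid cells, and Cd300lf, an inhibitory myeloid receptor, fell by 4.85 and 4.84 on the log2 scale. The groups were apart for all of these genes. Cd300lf also ended below saline, at a log2 difference of -1.04 (adjusted p = 0.0164), and it overlaps Rab37 on the opposite strand.

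Chemokines, the secreted attractants of leukocytes, moved in both directions. Of 19 CC chemokines tested 9 fell and 1 rose (median -0.62), and of 13 CXC chemokines 9 fell and 2 rose (Cxcl12 and Cxcl14, median -0.86). Ccl3, a macrophage inflammatory protein, had 25.6 to 56.3 (median 42.5) normalized counts at 4 weeks and 0 to 2.79 (median 1.72) after recovery. Cxcl2, a neutrophil attractant, had 12.4 to 125 (median 63.9) and 1.77 to 4.45 (median 2.8). Ccl2, the main monocyte attractant, had 484 to 820.5 (median 574) and 98.8 to 147 (median 128). Groups were apart for all 3, with log2 fold changes of -4.18 (SE 0.34, adjusted p = 2.74e-13), -3.77 (0.52, 1.65e-07) and -2.28 (0.18, 9.16e-14). The CC chemokine that rose was Ccl24, an eosinophil attractant made by resident and alternatively activated macrophages, with 6.29 to 36.7 (median 17.6) at 4 weeks and 70 to 128 (median 85.1) at 10 weeks. Its log2 fold change was 2.25 (adjusted p = 1.62e-06), and saline mice had 57 to 295 (median 98.1).

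Macrophage genes split by kind. Of 18 genes of lipid-handling and scar-associated macrophages 8 fell and 2 rose (Lpl and Cd36, median -0.55). Trem2, a lipid receptor of such macrophages, had 302 to 465 (median 359) normalized counts at 4 weeks and 41.3 to 63.1 (median 54.4) at 10 weeks of recovery. Spp1, osteopontin, had 554 to 954 (median 678) and 69.5 to 112 (median 103), and the elastase gene Mmp12 had 311 to 990.0 (median 482) and 54.3 to 194 (median 115). The groups did not overlap for these genes, and the log2 fold changes were -2.75, -2.88 and -2.23 with SEs of 0.19, 0.17 and 0.33. Spp1 stayed above saline, by 0.76 (adjusted p = 0.00462). The general macrophage marker Cd68 fell by 1.57 on the log2 scale. Among 19 complement genes 9 fell and 2 rose (C6 and Cfd), and the falls were led by C3ar1, the receptor of the C3a fragment, at -2.55. Cfd is also counted in the fat cell list below.

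No gene of resident dermal macrophages fell by the test. Of 14 tested, 3 rose and 0 fell (median 0.12), while 8 of the 14 were lower than with saline at 10 weeks (0.998% of all genes were). Timd4, a phosphatidylserine receptor of long-lived macrophages, had 0 to 11.4 (median 7.28) normalized counts at 4 weeks, 6.57 to 23.8 (median 12.5) at 10 weeks and 11.9 to 62 (median 48) with saline. The lectin Cd209f had 99.7 to 186 (median 156), 185 to 312 (median 247) and 313 to 888 (median 591) in the same order, and Cd209g had 40.1 to 94 (median 71.3), 69.6 to 152 (median 98.8) and 141 to 399 (median 274). The 10-week medians lay between those of the 4-week and the saline mice. The 10-week mice overlapped the 4-week mice for all of these genes, and the saline mice for Timd4 and Cd209g. The log2 fold changes from 4 weeks were 1.11 (SE 0.35, adjusted p = 0.0136), 0.71 (0.20, 0.00576) and 0.63 (0.23, 0.0277), and those from saline were -1.49, -1.21 and -1.26. Without the 3 mice least like their group, the rises of Timd4 (0.97, adjusted p = 0.0599) and Cd209g (0.54, adjusted p = 0.1) no longer passed the test. In the alternative activation list, 3 of 13 rose (Retnla, Mgl2 and Ear2) and 4 fell (Chil3, Mrc1, Msr1 and Tgm2). Its largest rise was in Retnla, a resistin-like protein induced by interleukin 4, with 49.5 to 359 (median 123) at 4 weeks and 2219.5 to 4147 (median 3379.7) at 10 weeks (log2 fold change 4.65, SE 0.36, adjusted p = 8.03e-14), with 1576 to 7518 (median 3444) in saline mice.

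**Figure D2:**
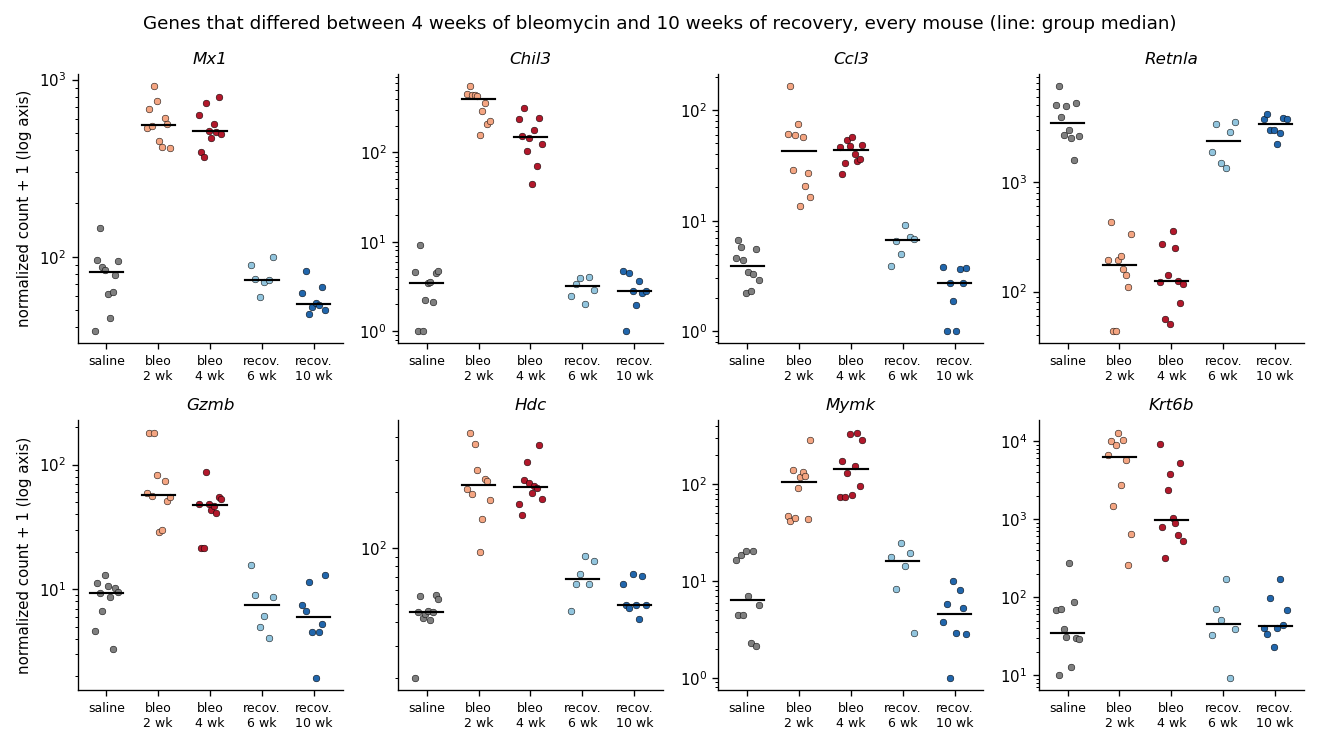
Normalized count + 1 (log axis) of 8 genes in each of the 44 mice by group, with the group median as a line. For all 8 genes the 4-week bleomycin mice (dark red) and the 10-week recovery mice (dark blue) do not overlap.

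T cell genes fell, the granzymes among the largest falls. Of 23 tested 13 fell and 0 rose (median -0.87). Gzma and Gzmb, the granzymes of killer cells, had 10.8 to 54.2 (median 38.1) and 20.3 to 86.1 (median 46.3) normalized counts at 4 weeks and 1.7 to 6.2 (median 2.52) and 0.939 to 12 (median 4.96) at 10 weeks. Both groups were apart for each granzyme, with log2 fold changes of -3.04 (SE 0.35) and -2.86 (0.35). Gzma ended below saline, at a log2 difference of -1.36 (adjusted p = 0.013). Foxp3, the regulatory T cell factor, fell with 31.3 to 201 (median 86.5) at 4 weeks and 7.84 to 35.6 (median 27.5) at 10 weeks with overlap (adjusted p = 6.29e-06), and it overlaps Ccdc22 and Ppp1r3f on the opposite strand. The receptor subunit Cd3e, a marker of T cells as a whole, did not pass the test, at -0.34 (95% interval -0.72 to 0.04).

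Mast cell genes fell as well, 10 of 12 tested with a median of -0.97 and 0 rises. Hdc, which makes histamine, had 149.5 to 361 (median 213) at 4 weeks and 40.8 to 72.1 (median 48.8) at 10 weeks of recovery. Fcer1a, the IgE receptor alpha chain, had 60.9 to 134 (median 117) and 11.5 to 26.7 (median 21.3), and Cpa3, a granule protease, had 1273 to 1795 (median 1434) and 589.7 to 1048 (median 731). All 10-week mice were below all 4-week mice for these genes, with log2 fold changes of -1.99, -2.42 and -0.92 (SEs 0.20, 0.32 and 0.13). Fcer1a and the tryptase gene Tpsab1 were above saline, by 1.55 and 1.16. Immunoglobulin genes moved both ways, with 3 of 13 B cell genes higher (Ighm, Ighg1 and Tnfrsf17) and 2 lower (Ighg2b and Cd79b). Without the 3 mice least like their group Ighm (0.54, adjusted p = 0.0671) and Tnfrsf17 no longer passed. Ighg2b fell with 1.27 to 90.4 (median 10.4) at 4 weeks and 0 to 13.6 (median 1.76) at 10 weeks, and Ighg1 rose with 0.978 to 76 (median 9.78) at 4 weeks and 26.6 to 56.6 (median 44.4) at 10 weeks. The mice overlapped for both, and the constant regions of IgG subclasses resemble each other, so reads may be split between them. Of 11 genes of MHC class II presentation 1 fell (H2-Eb2) and 0 rose, where 9.1% of all genes tested fell and 6.73% rose. The difference for H2-Aa, an antigen-presenting chain, was 0.05 (95% interval -0.31 to 0.40).

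Genes of muscle repair and denervation fell in the same comparison. They mark new or uninnervated fibres, which express embryonic myosins, fetal acetylcholine receptor subunits and fusion proteins. Of 15 tested 12 fell and 0 rose, with a median of -1.53. Mymk, the membrane protein that fuses muscle precursor cells (ENSMUSG00000009214.7, chromosome 2 from 27061636 to 27072179), had 73.3 to 339.6 (median 141) normalized counts at 4 weeks of bleomycin and 0 to 8.91 (median 3.52) at 10 weeks of recovery. Chrng, the fetal acetylcholine receptor subunit, had 32.9 to 154 (median 70.2) and 0.886 to 8.91 (median 4.01), and Myh8, perinatal myosin, had 656 to 5270.2 (median 1645) and 133 to 399.9 (median 240.2). The groups did not overlap for the 3 genes, and the log2 fold changes were -5.17 (SE 0.48, adjusted p = 1.28e-11), -4.08 (0.47, 3.07e-09) and -2.95 (0.37, 3.05e-08). Against saline 3.05% of all genes were DEGs at 10 weeks, 2.05% higher and 0.998% lower. Of the 15 repair genes 6 were higher than with saline and 0 lower. For Mymk the difference from saline was -0.86 (95% interval -1.84 to 0.11).

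Myogenic factors bind the E-box CAGCTG, which reads the same on both strands. Of the 15 genes, 9 had a RefSeq promoter and 4 of these held it in the 250 bases before the start (44.4%, against 12.8% of all 27025 promoters). Chrng and Chrna1 are shown as receptor subunits that fell together (log2 fold changes -4.08 and -2.49), with the box in capitals, and Chrna1 was chosen for its match after its value was seen.
Chrng (chr1:87205654-87205713, plus strand): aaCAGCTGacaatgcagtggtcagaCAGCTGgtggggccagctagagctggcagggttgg
Chrna1 (chr2:73580348-73580407, minus strand): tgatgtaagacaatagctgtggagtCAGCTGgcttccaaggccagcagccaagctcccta

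Slow-fibre genes did not follow. Of 12 slow-twitch genes 3 rose (Myh7, Myl2 and Myl3) and 2 fell (Tnni1 and Casq2), where 6.73% of all genes tested rose and 9.1% fell. The median of the list was 0.05, and the call of Myl3 was lost under 6 alternatives. Against saline 9 of the 12 were higher at 10 weeks, where 2.05% of all genes were. At 4 weeks of bleomycin 7 were already higher than with saline. Myh7, slow myosin, had 20.5 to 389 (median 81.8) normalized counts at 4 weeks, 99.3 to 7898 (median 312) at 10 weeks and 0.939 to 206 (median 18.3) with saline. Myl2, the slow regulatory light chain, had 3.15 to 98.3 (median 37.3), 46.1 to 2741 (median 124) and 2.58 to 98.1 (median 23.7). The 10-week mouse 2 held the highest value of both genes, and the groups overlapped. The log2 fold change of Myh7 was 2.55 (SE 0.88, adjusted p = 0.0212), 1.99 without mouse 2 (adjusted p = 0.0757) and 2.17 without the 3 mice least like their group (adjusted p = 0.0939), so its call does not hold without them. That of Myl2 was 2.69 (adjusted p = 0.00148). Tnni1, slow troponin I, moved the other way, with 126 to 547 (median 185) at 4 weeks and 29.2 to 776 (median 50.4) at 10 weeks (log2 fold change -1.55, adjusted p = 0.00832), and its call was lost with edgeR (-0.75, adjusted p = 0.21) and DESeq2 (-0.73, adjusted p = 0.246). Of 17 fast-twitch genes 1 rose, the calcium buffer Pvalb at 1.15, and 0 fell, where 6.73% of all genes tested rose and 9.1% fell. The differences of Myh4, Ckm and Acta1, the bulk of fast muscle, were 0.56, 0.51 and 0.13 (95% intervals -0.01 to 1.13, 0.12 to 0.91 and -0.29 to 0.54), and none of them passed the test.

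**Figure D3:**
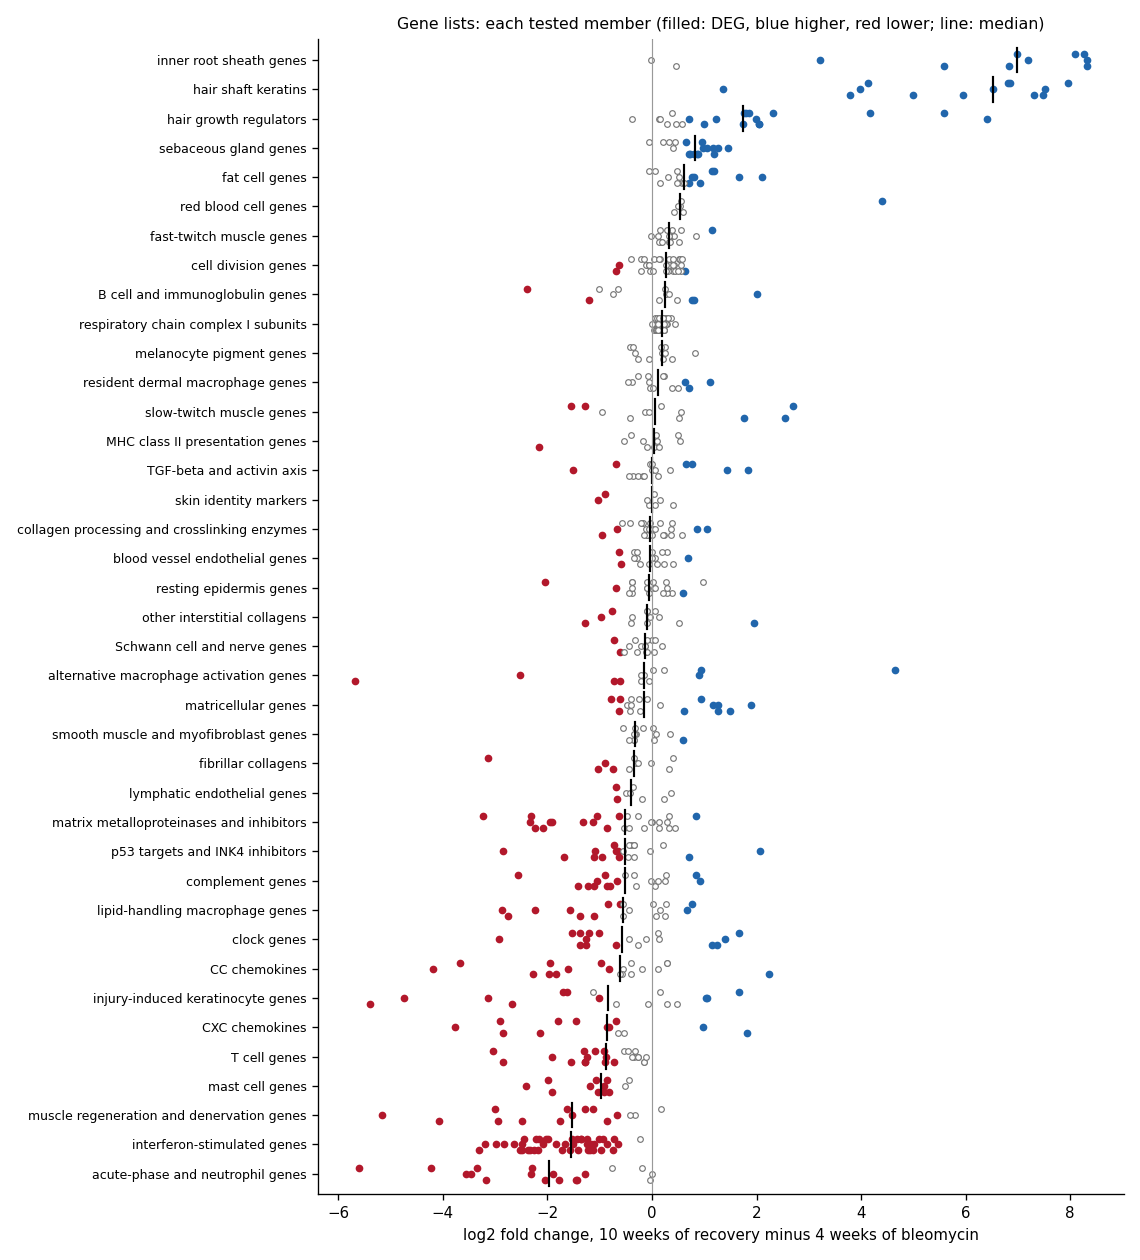
Log2 fold change of each tested member of the 39 gene lists, 10 weeks of recovery minus 4 weeks of bleomycin, with lists ordered by their median (line). Filled points are DEGs (blue higher, red lower) and open points did not pass. Hair lists lie at the top, with medians of 6.99 and 6.53, and acute-phase and interferon-stimulated genes at the bottom, with medians of -1.97 and -1.55.

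Genes of growing hair had the highest medians. Inner root sheath and hair shaft keratins are made while a follicle grows, and they are silent when it rests. Of 11 inner root sheath genes 9 rose and 0 fell (median 6.99), and of 13 hair shaft keratins 13 rose and 0 fell (median 6.53). Krt71, an inner root sheath keratin, had 3.8 to 2181 (median 19.6) normalized counts at 4 weeks and 586 to 76408 (median 42428) at 10 weeks of recovery, and Krt31, of the hair cortex, had 1.83 to 198 (median 4.32) and 8.02 to 3251 (median 2041). The mice within a group were unlike each other. For Krt71, 4-week mice 3 and 8 were far above their group's median, and 10-week mice 3, 4 and 7 far below theirs, which made the groups overlap. The log2 fold changes were 8.32 (SE 1.22, adjusted p = 6.48e-07) and 5.95 (1.11, 4.02e-05). Against saline, in which mice also differed widely (916 to 94352 (median 18455) for Krt71), 0 genes of either list differed at 10 weeks of recovery by limma, edgeR or DESeq2, and 0 had an unadjusted p below 0.05.

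Regulators of hair growth rose with the keratins, 14 of 21 tested against 0 falls (median 1.73). Hoxc13, a homeobox factor of hair shaft genes, had 53.7 to 101 (median 76.3) at 4 weeks and 129 to 1109.8 (median 539.9) after recovery, without overlap (log2 fold change 2.32, adjusted p = 7.1e-06). Shh, the growth signal of the hair matrix, rose from a median of 3.71 to 34.9 with overlap (log2 fold change 2.05, adjusted p = 0.0132), a call that was lost with a pseudocount of 0.1 (2.28, adjusted p = 0.052). Foxe1, a follicle transcription factor, and Padi3, which modifies hair proteins, rose by 4.17 and 6.41 on the log2 scale. Pigment genes of melanocytes, which colour growing hair, did not pass the test in either direction. By limma, edgeR and DESeq2 alike 0 of 12 passed, and by limma 1 had an unadjusted p below 0.05. Their mean log2(normalized count + 1) had a median of 6.24 at 4 weeks of bleomycin and 6.71 at 10 weeks of recovery. At 2 weeks of bleomycin it was 5.08, while hair shaft keratins had 1.56 at 2 weeks and 1.79 at 4 weeks. Tyr, the pigment enzyme tyrosinase, differed by 0.22 (95% interval -1.12 to 1.55) and Dct by -0.42 (-1.20 to 0.35).

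Glands and fat rose more evenly between mice. Of 18 genes of sebaceous glands, which make the skin's oil, 13 rose and 0 fell (median 0.83). Scd3 and Scd1, desaturases that make unsaturated fatty acids, had 448 to 911 (median 709) and 11030.1 to 18963 (median 14095) at 4 weeks and 1289 to 2485 (median 1961) and 19926 to 48106 (median 31733) at 10 weeks. Fasn, fatty acid synthase, had 2964 to 5737 (median 3855) and 5847 to 17371 (median 8817). No mouse of one group reached into the other for these 3 genes, with log2 fold changes of 1.45, 1.18 and 1.26 (SEs 0.22, 0.23 and 0.24). Of 17 fat cell genes 8 rose and 0 fell (median 0.60). Adrb3, the beta-3 adrenergic receptor of fat, had 77.5 to 155 (median 115) and 340.2 to 636 (median 531), and Lep, leptin, had 103 to 229 (median 144) and 249 to 1079 (median 388). Both were apart between the groups, at 2.11 and 1.66, while the differences of Adrb3 and Lep from saline were 0.49 (95% interval 0.13 to 0.85) and -0.02 (-0.62 to 0.58). Against saline, 0 of the 18 gland genes and 0 of the 17 fat genes passed the test at 10 weeks by limma.

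In the epidermis, 7 of 16 injury-induced keratinocyte genes fell and 3 rose (Krt8, Krt18 and Sprr1a, median -0.85). Krt6b, a keratin of wounded epidermis, had 314 to 9298 (median 966) at 4 weeks and 22.3 to 171 (median 41.4) at 10 weeks of recovery, without overlap (log2 fold change -4.74, SE 0.68, adjusted p = 4.33e-07), against 9.14 to 274 (median 33.9) with saline. Its paralog Krt6a, which follicles also make, had 3137 to 13209 (median 3783) and 1951 to 14527 (median 4198) and did not pass (-0.08, 95% interval -0.86 to 0.69). Of 21 genes of resting epidermis 1 rose (Ivl) and 2 fell (Krt2 and Hrnr), where 6.73% of all genes tested rose and 9.1% fell. The rise of Ivl, a cornified envelope precursor, at 0.59, was below the fold threshold with quantile (0.54) or TMM scaling (0.57), with edgeR (0.58) and without any 1 of 9 mice (0.56 to 0.58). Tgm3, an epidermal transglutaminase, did not pass with limma (0.97, adjusted p = 0.187) and passed with edgeR (1.57, adjusted p = 0.0205) and DESeq2 (1.58, adjusted p = 0.0135). Hrnr, a cornified envelope protein, fell with 1507 to 2465 (median 2063) at 4 weeks and 887 to 2081 (median 1198) at 10 weeks and ended below saline, at a log2 difference of -1.12 (adjusted p = 0.000952). None of the structural keratins passed the test. Krt5, Krt14 and Krt10 differed by -0.06, -0.09 and 0.05 with 95% intervals of -0.27 to 0.15, -0.39 to 0.20 and -0.26 to 0.36.

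**Figure D4:**
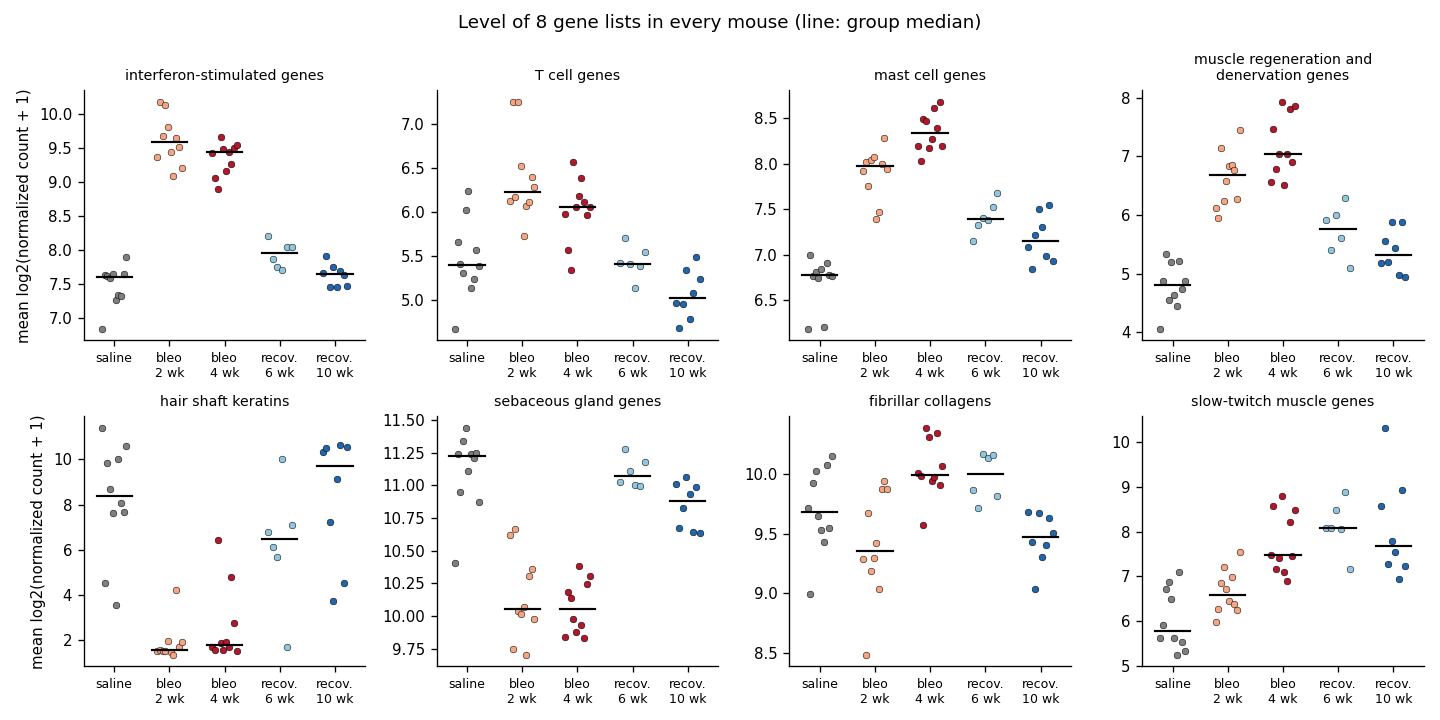
Mean log2(normalized count + 1) over the tested members of 8 gene lists in each of the 44 mice by group, with the group median as a line. For interferon-stimulated, mast cell, muscle regeneration and sebaceous gland genes the 4-week bleomycin mice (dark red) and the 10-week recovery mice (dark blue) do not overlap, while hair shaft keratins vary widely within both groups.

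Matrix genes moved in both directions. Of 11 fibrillar collagens 4 fell (Col1a1, Col1a2, Col2a1 and Col24a1) and 0 rose (median -0.34), and of 13 other interstitial collagens 3 fell (Col6a5, Col8a1 and Col12a1) and 1 rose. The call of Col12a1 (-0.97, adjusted p = 0.0453) was lost without the filter on low values (adjusted p = 0.0731), without the 3 mice least like their group (-0.85, adjusted p = 0.135) and without any 1 of 11 mice (adjusted p 0.053 to 0.138). Col1a1 and Col1a2, the chains of type I collagen, had 16440.0 to 67224 (median 37216) and 19826 to 74519 (median 45482) normalized counts at 4 weeks and 11524 to 28851 (median 18248) and 15144 to 36658 (median 23128) at 10 weeks of recovery. The groups overlapped, and 4-week mouse 3 was the lowest of its group for both. The log2 fold changes were -1.02 (SE 0.25, adjusted p = 0.00121) and -0.91 (0.24, 0.00333). Lox, which crosslinks collagen, fell without overlap, with 988 to 1644 (median 1201) at 4 weeks and 418 to 790.1 (median 642) at 10 weeks (log2 fold change -0.95, adjusted p = 8.93e-07). The cartilage collagen Col2a1 fell with 13.6 to 40.1 (median 26.2) at 4 weeks and 0.871 to 4.6 (median 2.1) at 10 weeks. The interstitial collagen that rose was Col14a1, which binds fibrils, with 204 to 522 (median 425) at 4 weeks and 994 to 3115 (median 1355) at 10 weeks (log2 fold change 1.94), and it ended above saline by 0.75 (adjusted p = 0.0348).

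Proteases and their inhibitors fell more often, 12 of 26 against 1 rise (Timp4), whose call (0.85, adjusted p = 0.0392) was lost under 3 alternatives and without any 1 of 9 mice. Timp1, an inhibitor of metalloproteinases, had 261 to 616 (median 408) at 4 weeks and 50.7 to 100.3 (median 82.3) at 10 weeks, and Mmp8, the neutrophil collagenase, had 13.2 to 38.7 (median 23.5) and 0 to 4.45 (median 1.87). The groups were apart, at -2.32 (SE 0.24) and -3.24 (0.34), and Timp1 overlaps Syn1 on the opposite strand. Matricellular genes, whose products tune how cells meet the matrix, rose in 7 and fell in 3 of 18 (Sparc, Ccn4 and Tgfbi). Tnxb, tenascin X, had 1239 to 1986 (median 1669) and 2462 to 5416 (median 3987), and Thbs3, thrombospondin 3, had 205 to 311 (median 236) and 558 to 879.7 (median 671), without overlap in either. Their adjusted p values were 1.77e-06 and 2.13e-11. In the TGF-beta axis 4 of 18 rose (Ltbp4, Smad6, Smad7 and Bambi) and 2 fell (Ltbp2 and Fst). Of 25 collagen processing and crosslinking enzymes 2 rose (Loxl1 and Pcolce2) and 2 fell (Lox and Loxl4). These enzyme counts are near the shares of all genes tested, 6.73% higher and 9.1% lower. Of 14 smooth muscle and myofibroblast genes 1 rose (Smtn) and 0 fell, and this 1 rise is also near the share of all genes. The rise of Smtn, smoothelin, at 0.60, was below the fold threshold with quantile (0.55) or TMM scaling (0.58), and without any 1 of 6 mice (0.50 to 0.57). Des, desmin, at -0.44, fell past the threshold without the 3 mice least like their group (-0.67, adjusted p = 0.00299). Leaving out single mice also ended the calls of Sparc (1 mouse), Ccn5 (5), Tgfbi (3), Smad7 (2) and Loxl4 (1). The call of Ccn5, 1 of the 7 matricellular rises (0.61, adjusted p = 0.0189), was also lost with edgeR and without the 3 mice least like their group. Ltbp2, a latent TGF-beta binding family member of elastic fibres, fell with 581 to 2139 (median 1159.6) at 4 weeks and 229 to 622 (median 407) at 10 weeks (adjusted p = 5.67e-06), and Smad6, an inhibitor of BMP signals, rose with 34.2 to 56.2 (median 49.4) at 4 weeks and 61.8 to 222 (median 139.6) at 10 weeks (1.43). Neither Tgfb1 nor Acta2, the actin of myofibroblasts and smooth muscle, passed, at -0.36 (95% interval -0.76 to 0.04) and -0.34 (-0.65 to -0.04).

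Matrix genes differed by which bleomycin time and which recovery time were set against each other. Mice after 6 weeks of recovery were compared with mice at 2 weeks of bleomycin, which shares no mouse with the 10-week against 4-week comparison, and the difference between both log2 fold changes was tested in the same fit. By this test 494 genes differed (2.9%), 371 with a lower and 123 with a higher value in the 10-week against 4-week comparison (2.18% and 0.722%). Among the lists, lower values were found for 6 of 11 fibrillar collagens, 6 of 25 collagen processing and crosslinking enzymes, 9 of 18 matricellular genes and 11 of 26 proteases and inhibitors, with 0 higher values in each. Of the fibrillar collagens, 7 had risen and 1 had fallen between the 2-week bleomycin and the 6-week recovery mice.

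Col1a1 moved in opposite directions in the pairs. Its medians were 28540.1 with saline, 18491 at 2 weeks and 37216 at 4 weeks of bleomycin, 47073 at 6 weeks and 18248 at 10 weeks of recovery. The log2 fold change was 1.24 from 2 weeks to 6 weeks of recovery and -1.02 from 4 weeks to 10 weeks of recovery, a difference of -2.26 (SE 0.37, adjusted p = 0.000284). Lox had the same signs, at 0.93 and -0.95 (difference -1.88, adjusted p = 1.12e-07). Cthrc1, a secreted protein of activated fibroblasts, gave the largest difference of the matrix genes named here, -2.99, with medians of 39.2 and 331 in one pair of groups and 109 and 91.5 in the other. Mmp2 and Col6a1, a gelatinase and a chain of beaded-filament collagen, rose in the first pair (1.14 and 1.40) and did not pass in the second (-0.16 and -0.10), and their differences of -1.30 and -1.49 passed the test. Both the bleomycin time and the recovery time differ between the pairs, so the parts of each cannot be told apart.

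Genes induced by p53 after DNA damage fell in part, and Cdkn2a rose. Of 20 p53 targets and INK4 inhibitors 9 fell and 2 rose (Cdkn2a and Cdkn2c, median -0.51). Gdf15, a stress cytokine, had 42.7 to 103 (median 66.5) at 4 weeks and 4.05 to 16.9 (median 7.59) at 10 weeks, Pmaip1, the death protein Noxa, had 203 to 331 (median 292) and 72.3 to 129 (median 82.8), and Polk, a damage-bypass polymerase, had 293 to 432 (median 342) and 128 to 188 (median 163). The groups were apart for each, with log2 fold changes of -2.85, -1.69 and -1.11. Gdf15 was still above saline, by 1.21 (adjusted p = 0.00155). Cdkn1a, the p21 inhibitor, was lower in every 10-week mouse as well, but its log2 fold change of -0.46 was short of the fold threshold. Cdkn2a, which encodes the p16 INK4 and ARF proteins of lasting cell cycle arrest, rose. It had 0 to 4.74 (median 1.25) with saline, 2.18 to 16.4 (median 3.86) at 2 weeks and 11 to 39.3 (median 19.8) at 4 weeks of bleomycin, 82.5 to 194 (median 113) at 6 weeks and 51.7 to 130.0 (median 92.5) at 10 weeks of recovery. All 10-week mice were above all 4-week mice (log2 fold change 2.06, SE 0.33, adjusted p = 2.54e-06), and the difference from saline was 5.28 (adjusted p = 9.11e-16). Of 33 cell division genes 1 rose (Ube2c) and 2 fell (Cdt1 and Gins2), where 6.73% of all genes tested rose and 9.1% fell.

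Some genes were higher at 10 weeks of recovery than at 4 weeks of bleomycin and also higher than with saline. There were 56 such genes (0.329% of those tested) and 59 lower than both (0.346%). These were 68 and 126 without saline mouse 1 and 2-week mouse 2, and 82 and 101 with DESeq2, so the balance between them depended on the fit. Both tests of each gene share the 10-week mice, so the counts are a description. Of the 56, 36 were already higher at 6 weeks of recovery than at 4 weeks of bleomycin, with the same 4-week mice. In other mice, 35 of the 56 were also higher at 6 weeks of recovery than at 2 weeks of bleomycin and 0 were lower, where 7.1% of all genes were higher. Of the 59, 40 were lower and 1 higher in those mice, where 8.21% of all genes were lower. The genes named are those with the largest value of the smaller of both fold changes.

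Islr2, a leucine-rich repeat membrane protein of neurons (ENSMUSG00000051243.11, chromosome 9 from 58196297 to 58204319 of GRCm38), had 2.53 to 16.3 (median 9.71) normalized counts at 4 weeks, 129.8 to 369 (median 237) at 10 weeks of recovery and 9.7 to 49.1 (median 29.6) with saline. Sfrp4, a secreted Wnt antagonist (ENSMUSG00000021319.6, chromosome 13 from 19623104 to 19632994), had 10.2 to 71.6 (median 34), 423 to 1358 (median 603) and 121 to 283 (median 170.0), and Wnt2, a Wnt ligand (ENSMUSG00000010797.6, chromosome 6 from 17988940 to 18030585), had 7.08 to 26.8 (median 15.1), 61.4 to 184 (median 81.5) and 21.8 to 50.7 (median 36.7). At 6 weeks of recovery Islr2 had 188 to 426 and Sfrp4 had 595 to 1014, so both were already above every 4-week mouse. Every 10-week mouse was above every 4-week mouse for the 3 genes. Their log2 fold changes from 4 weeks were 4.49 (SE 0.30, adjusted p = 1.48e-15), 4.44 (0.29, 7.46e-16) and 2.44 (0.26, 4.04e-10), and those from saline were 3.09, 1.84 and 1.32. Islr2 lies over the related gene Islr on the same strand, so reads may be shared. Fbln7, a fibulin of the matrix, and Ccn3, a matricellular CCN family member (Nov in older names), rose by 2.21 and 1.90 from 4 weeks and were 1.46 and 2.14 above saline. Slc22a2, an organic cation transporter, rose from a median of 1.49 to 7.62. Cdkn2a, Myh7 and Myl2, described above, also belong here, as does Myl3, the slow essential light chain, by the main fit only. The rise of Myl3, 1.75 (adjusted p = 0.0471), failed the test without any 1 of 9 mice, the furthest being 1.11 without 10-week mouse 2. It also failed under 6 alternatives. These were the pseudocount of 0.1, no filter on low values, TMM factors, the fit of the 2 groups alone, the replicate block, and leaving out the 3 mice least like their group.

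**Figure D5:**
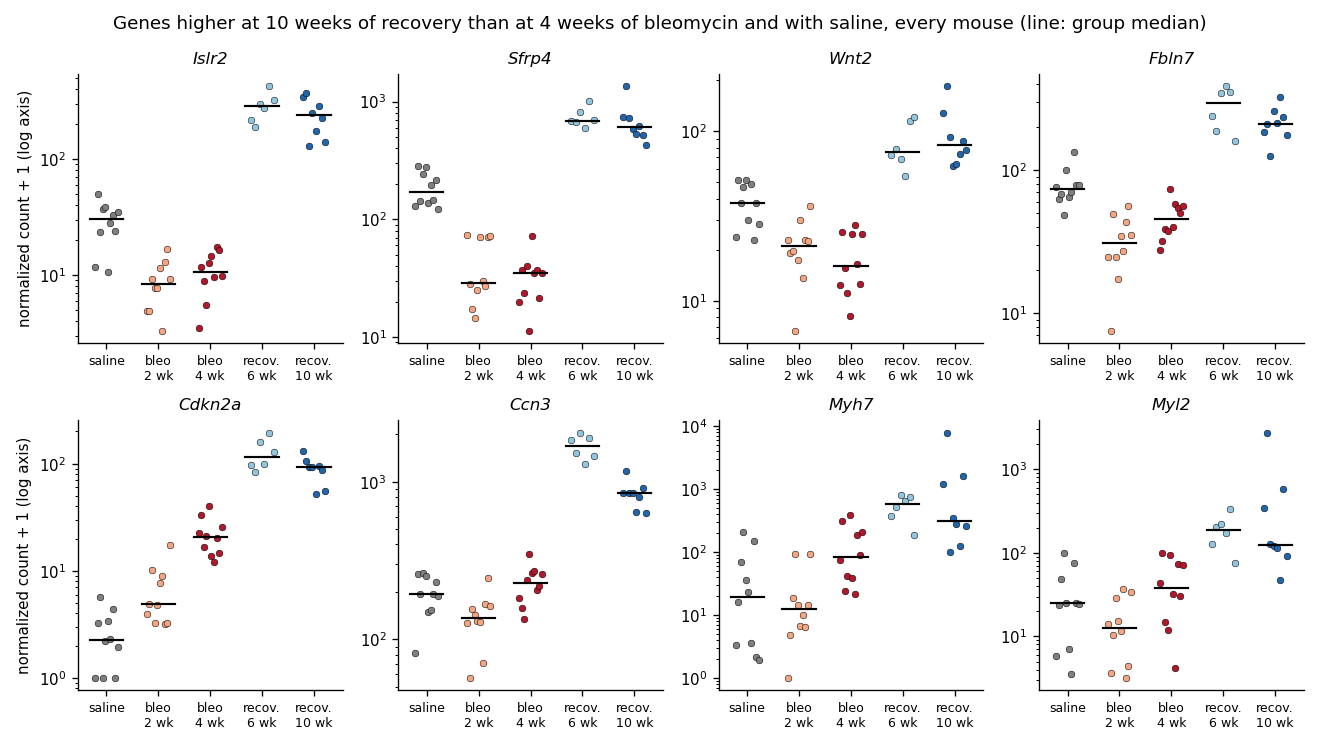
Normalized count + 1 (log axis) of 8 genes that were higher at 10 weeks of recovery than at 4 weeks of bleomycin and with saline, in each of the 44 mice by group, with the group median as a line. For Islr2, Sfrp4, Wnt2, Fbln7, Cdkn2a and Ccn3 all 8 10-week mice (dark blue) lie above all 10 4-week mice (dark red), whereas Myh7 and Myl2 overlap.

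Of the genes lower than both, Gsdmc, a pore-forming gasdermin of epithelium, had 76.3 to 533 (median 206) at 4 weeks, 11.9 to 40.1 (median 18.2) at 10 weeks of recovery and 27.4 to 601 (median 71.7) with saline, and Retnlg, a resistin-like protein of neutrophils, had 3.15 to 35.4 (median 14.6), 0.81 to 2.76 (median 1.74) and 1.29 to 48.9 (median 12). Both were apart from the 4-week mice, at -3.19 and -2.56, and both also differed from saline, where the level dropped by 1.94 and 2.33 on the log2 scale. Among the largest rises from 4 weeks, Cyp2g1, a cytochrome P450, rose with 20.3 to 541 (median 67) at 4 weeks and 1181 to 2579 (median 1902) at 10 weeks, with 2367 to 7527 (median 5059.9) in saline mice. Akr1c18, which inactivates progesterone, rose with 39.3 to 141 (median 89.6) at 4 weeks and 657 to 1441 (median 1097) at 10 weeks, with 670.1 to 1851 (median 1391). The log2 fold changes of Cyp2g1 and Akr1c18 were 4.59 and 3.74, without overlap from the 4-week mice. Cartpt, a neuropeptide, rose with 0 to 3.15 (median 0) at 4 weeks, 10.6 to 49 (median 22.8) at 10 weeks and 0 to 18.3 (median 8.37) in saline mice. Its 10-week median was above that of saline, at a log2 difference of 1.54 that did not pass the test (adjusted p = 0.0636), and its 4-week level rests on few reads. Tagln3, a neuronal actin-binding protein, rose from a median of 2.43 to 63.4, with 28.2 in saline mice.

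Between 6 and 10 weeks of recovery few genes passed the test, with 6 and 8 mice in these groups. Lists with 0 calls still had medians away from 0. The median log2 fold change was 2.18 for inner root sheath genes, 2.26 for hair shaft keratins and -0.60 for fibrillar collagens. Of the 17037 tested, 15 (0.088%) passed the test between these groups by limma, 3 higher (0.0176%) and 12 lower (0.0704%) at 10 weeks, and the number depended on the mice and the tool. There were 30 without 10-week mouse 4, 255 without the 3 mice least like their group, 58 without saline mouse 1 and 2-week mouse 2, which are in neither group, and 63 with DESeq2. The 3 that rose were Cd209f, Cd209g and the chromatin remodeller Baz1a (0.75). Cd209f had 42.5 to 136 (median 102) at 6 weeks and 185 to 312 (median 247) at 10 weeks of recovery (log2 fold change 1.47, adjusted p = 0.00101). The largest falls were in Cthrc1, with 249.8 to 401 (median 331) at 6 weeks and 60.7 to 149.9 (median 91.5) at 10 weeks (-1.74, adjusted p = 0.0047), F7, coagulation factor VII (-1.49), Creb3l3, a liver-type stress factor (-1.29), C1qtnf6, a secreted C1q-like protein (-1.05), and Aldh1l2, a mitochondrial folate enzyme (-1.05). Cthrc1 did not pass the test against the 4-week mice, at -0.13 (95% interval -0.69 to 0.43).

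Genes of the circadian clock differed between the groups as well. Of 18 tested 4 rose (Arntl, Npas2, Cry1 and Nfil3) and 9 fell, and 0 differed between 10 weeks of recovery and saline by limma. Dbp, an output factor of the clock, had 584 to 1014 (median 852) at 4 weeks and 70.6 to 272 (median 102) at 10 weeks, and Arntl, the clock activator BMAL1, had 231 to 331 (median 268) and 551 to 680.4 (median 612). Both were apart between the groups, in opposite directions, at -2.93 and 1.15, and Dbp overlaps Sphk2 on the opposite strand. The hour of harvest is not given in the sources used here, and its part in these differences was not tested. The clock's activators bind the E-box CACGTG, which 5 of the 15 clock genes with a RefSeq promoter held (33.3%). The box was held by 7.89% of the 12385 tested genes with a promoter and by 6.05% of all promoters. The windows of Ciart and Per1, repressors of the clock, are shown with the box in capitals, chosen for their match after their values were seen (log2 fold changes -1.01 and -1.27).
Ciart (chr3:95882238-95882297, minus strand): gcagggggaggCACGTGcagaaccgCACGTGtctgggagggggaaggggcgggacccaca
Per1 (chr11:69098758-69098817, plus strand): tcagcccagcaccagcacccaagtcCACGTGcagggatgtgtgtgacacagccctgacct

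Some genes of other skin cell types passed the test, where 6.73% of all genes tested rose and 9.1% fell. Of 18 blood vessel endothelial genes 1 rose, Tek, the angiopoietin receptor, at 0.69, and 2 fell (Vwf and Mmrn2), and of 8 lymphatic genes 2 fell (Prox1 and Mmrn1) and 0 rose. The call of Vwf, von Willebrand factor (-0.59, adjusted p = 0.0355), was lost without the filter on low values (adjusted p = 0.0559) and without any 1 of 11 mice (adjusted p 0.0508 to 0.0871), and that of Prox1, the lymphatic fate regulator (-0.66), without 10-week mouse 6 (-0.56). Of 16 Schwann cell and nerve genes 2 fell, Gfra3 among them, and 0 rose, while 6 were above saline at 10 weeks (2.05% of all genes were). Of 34 subunits of respiratory complex I 0 passed by limma, edgeR or DESeq2, with 14 at an unadjusted p below 0.05 by limma and a median of 0.19. In the red blood cell list 1 of 6 rose, the anion exchanger gene Slc4a1, at 4.41, while the haemoglobin gene Hbb-bs differed by 0.56 (95% interval 0.03 to 1.09).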

How the data were processed

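Skin RNA of 44 mice was sequenced from stranded mRNA libraries. The authors aligned reads to mm10 with STAR 2.4.0 and deposited 1 table of 43411 genes whose values are read counts divided by DESeq2 (1.12.3) size factors, a depth-normalized signal per gene. The counting tool, annotation and strand setting are not given in the sources used here. Whole reads recovered from the steps of these values were whole for 100.0% of values within 0.02 reads, and gave each mouse's depth. Genes with a mean above 3 over 44 mice entered limma 3.58.1 (R 4.3.3, mean-variance trend) on log2(value + 1) in a single fit of the 5 groups, and a DEG had a fold change over 1.5 (log2 0.585) and a Benjamini-Hochberg adjusted p below 0.05 over all genes. Spread is between separate mice. Gene positions are from GENCODE vM21 (GRCm38).

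Genes named are the 10 largest rises and 10 largest falls without overlap, the 10 highest and 5 lowest relative to both other groups, up to 4 members of each of 39 lists with the largest change plus the first listed, and up to 5 rises and 5 falls between 6 and 10 weeks, passing over multicopy genes and gene models without a name. Where a list had few calls, its genes are listed whatever their size, a choice made after their values were seen. Members and lists were chosen with earlier results of these data known. Within each group, no pair of mice agreed within sampling noise (chi-square per degree of freedom at least 5.06). In counts simulated for this comparison over 17037 genes with 200 changed, limma recovered 95% of 2-fold and 97% of 4-fold changes and called 1 unchanged gene. The changed genes were drawn only from genes well above the filter, so these shares do not cover genes of low counts. Fewer genes were changed than were called in the data. Alternatives were other pseudocounts, filters, fold thresholds, scalings and samples, a replicate block, and edgeR 4.0.16 and DESeq2 1.42.0 on the recovered reads, with 1 added after the data were seen. Some results are not reported here. Tables and plots used Python 3.11.15.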

Additional observations from a re-analysis of the deposited data

Results flagged for a closer look

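Single mice stood apart from their group in 17 of 334 groups of mice examined over 167 genes, where the gap to the nearest mouse took a larger part of the group's range than Dixon's 95% limit, and chance flags about 1 in 20 groups. Gap and range are on the log scale and not on the normalized counts printed beside them. At 4 weeks of bleomycin, mouse 3 was apart for Col1a1 (lowest, 16440.0 against a group median of 37216, gap 0.487 of the range), Col1a2 (lowest, 19826 against a group median of 45482, gap 0.515 of the range), Col14a1 (lowest, 204 against a group median of 425, gap 0.557 of the range), Bambi (highest, 98.7 against a group median of 58.6, gap 0.483 of the range) and C1qtnf6 (lowest, 211 against a group median of 402, gap 0.546 of the range). Other 4-week mice were apart for Timd4 (lowest in 4-week mouse 1, 0 against a group median of 7.28, gap 0.525 of the range), Ighg1 (highest in 4-week mouse 1, 76 against a group median of 9.78, gap 0.469 of the range) and Pmaip1 (lowest in 4-week mouse 6, 203 against a group median of 292, gap 0.562 of the range). At 10 weeks of recovery, mice were apart for S100a9 (highest in 10-week mouse 6, 27.5 against a group median of 12.1, gap 0.59 of the range), Ccl4 (lowest in 10-week mouse 4, 0 against a group median of 2.79, gap 0.539 of the range), C1qa (lowest in 10-week mouse 5, 1175 against a group median of 1642, gap 0.641 of the range) and Col24a1 (lowest in 10-week mouse 6, 23 against a group median of 35, gap 0.562 of the range). The rest at 10 weeks were Loxl1 (lowest in 10-week mouse 3, 635 against a group median of 1160.1, gap 0.542 of the range), Timp1 (lowest in 10-week mouse 5, 50.7 against a group median of 82.3, gap 0.553 of the range), Mmp10 (lowest in 10-week mouse 5, 0 against a group median of 0.905, gap 0.597 of the range), Dbp (highest in 10-week mouse 7, 272 against a group median of 102, gap 0.535 of the range) and Mmrn2 (highest in 10-week mouse 4, 434 against a group median of 321, gap 0.706 of the range). Mouse 3 at 4 weeks and mice 4 and 7 at 10 weeks are the 3 mice least like their group.

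The log2 fold change of 10-week recovery against 4-week bleomycin mice differed from that of other mice, 6-week recovery against 2-week bleomycin, for 39 of the genes named, by limma's test of the difference itself (adjusted p below 0.05 and an absolute difference over log2(1.5)). It was lower for 29 and higher for 10. Many of these genes were named for a large 10-week against 4-week or 10-week against 6-week value. Both values enter the difference, so the count is a description. Over all genes tested, 2.9% differed by this test. The differences (10-week against 4-week minus 6-week against 2-week, log2) were, for the collagen, matrix and TGF-beta genes, Mmp12 (-2.96), Col1a1 (-2.26), Col1a2 (-2.09), Col24a1 (-1.05), Col8a1 (-1.95), Col6a1 (-1.49), Lox (-1.88), Loxl4 (-1.23), Mmp8 (-2.13), Mmp2 (-1.30), Ccn3 (-1.77), Postn (-0.81), Ltbp2 (-1.48), Acta2 (-0.88), Cthrc1 (-2.99) and C1qtnf6 (-1.44). For macrophage and mast cell genes they were Spp1 (-1.13), Trem2 (-1.43), Cma1 (-0.67) and Mcpt4 (-0.75), and for muscle and nerve genes Chrnd (-1.74), Myh8 (-1.94) and Gfra3 (-1.37). For genes of the clock, cell cycle arrest and metabolism they were Cdkn2a (-2.34), Dbp (-1.57), Per3 (-0.73), F7 (-1.81), Creb3l3 (-1.51) and Aldh1l2 (-1.49). Those above 0 were Ly6c2 (1.60), Cd209f (1.84), Cd209g (1.99), Ivl (0.70), Akr1c18 (1.51), Adrb3 (1.07), Fabp4 (0.85), Baz1a (0.92), Cartpt (2.51) and Hbb-bs (1.47).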

How the results depend on the processing

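Counts over the whole table were within 1.5 times their main value, and no named gene that passed reversed, under the other pseudocount, the filters, the log2 threshold of 0.5, quantile and TMM scaling, the fit of the 2 groups alone (which gives no contrast with other groups) and edgeR. The share of DEGs that were higher, 42.5%, ran from 40.2% with TMM factors to 44.1% with the replicate block over the alternatives that keep the fold threshold. Without a fold threshold there were 5576 DEGs (2850 higher, 2726 lower), 1860 raised genes that fell, 1728 lowered genes that rose, 5429 DEGs of 6 weeks of recovery against 2 weeks of bleomycin, and 180 and 129 genes higher and lower than both 4 weeks of bleomycin and saline. Without saline mouse 1 and 2-week mouse 2, 126 genes were lower than both and 58 differed between 6 and 10 weeks of recovery, and with DESeq2 these were 101 and 63. The causes were not tested. Without the 3 mice least like their group, chosen after the data were seen, 255 genes differed between 6 and 10 weeks.

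Leaving out each of the 18 mice in turn gave 2579 to 2747 DEGs (1089 to 1191 higher, 1477 to 1582 lower), 1056 to 1121 raised genes that fell, 718 to 805 lowered genes that rose, 38 to 67 genes higher than both, 47 to 67 lower than both, and 10 to 30 between 6 and 10 weeks, the 30 without 10-week mouse 4. Mice of the 6-week against 2-week contrast were not left out singly. Of 213 named genes, 36 changed their call under any setting, in 51 of 2978 pairs of gene and alternative and 72 of 3824 pairs of gene and left-out mouse. Among these genes, calls lost on leaving out a single mouse were those of Cd209g, Cdt1, Col12a1, Gfra3, Ivl, Loxl4, Myh7, Myl3, Prox1, Smtn, Ube2c and Vwf, where each of the 18 mice ended at least 1 and 10-week mouse 2 the most, 6 (Cd209g, Gfra3, Ivl, Myh7, Myl3 and Vwf). Of 301 list members that passed, 36 lost the call under an alternative that keeps the fold threshold or without a single mouse, and 18 of 78 counts over lists, all of 3 genes or fewer, moved by over 1.5 times. Without the 3 mice least like their group, 12 list members lost the call (Ccn5, Cd209g, Col12a1, Fa2h, Ighm, Myh7, Myl3, Ptprv, S100a8, Timd4, Timp4 and Tnfrsf17) and 18 gained it. Cell division genes that rose numbered 0 to 4 over these settings, and MHC class II genes that fell 1 to 3. Slow-twitch genes that fell numbered 1 with edgeR or DESeq2.

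The groups share replicate numbers. Deviations of same-numbered mice correlated between -0.05 and 0.22, and 1 of 8 numbers correlated best with its own. The main fit used no pairing, and these few values do not settle whether a shared number marks anything. With the replicate block there were 2678 DEGs (1182 higher, 1496 lower), and 81 genes were higher than both. The block ended the calls of Eda2r, Gfra3, Ivl, Loxl4, Mmrn2, Mrc1, Myl3, Sparc, Tgfbi, Ube2c and Vwf in the lists.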
